A study of Arabidopsis thaliana with 8 samples.

Results

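Among 3708 genes of Arabidopsis thaliana leaves with a mean of at least 500 exon counts over 4 RNA libraries, 200 were well below mock in both elf18 libraries. They are the abundant genes lowered by elf18, of 27172 genes measured in all. Each was chosen on its exon CPM (counts-per-million, the count of a gene scaled to the library's total count): the higher of its elf18 values was at most 0.7 of the lower of its mock values. The RNA values therefore define these genes and are given below as a description, without a test. The ribosome footprint libraries were not used to choose them, and the question they answer is whether footprints were lower as well.

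The elf18 group was leaves of 3-week-old Col-0 plants infiltrated with 10 µM elf18, and the mock group was leaves of the same age infiltrated with 10 mM MgCl2. Every plant, mock plants included, carried the transgene 35S:uORFsTBF1-LUC, a luciferase reporter, so no untransformed plant was among the samples. Leaves of about 24 plants, 2 from each, were pooled into a lysate, and there were 4 lysates, 2 with elf18 and 2 in mock. Each lysate gave an RNA library and a footprint library, which made 8 libraries in 4 groups of 2. How long after infiltration the leaves were taken is not stated in the labels.

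elf18 is a peptide from the start of a bacterial translation factor, EF-Tu, and it is recognised at the plasma membrane by the receptor kinase EFR. Recognition sets off pattern-triggered immunity, in which calcium and kinase signals are followed by large changes in gene expression, and in which growth and photosynthesis genes are often lowered. Ribosome footprints are the stretches of mRNA protected by ribosomes, and their count over a coding sequence follows both the amount of mRNA and how densely it is translated.

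The exon RNA libraries held 11127372 and 15405467 counts with elf18, against 15031282 and 7898180 counts in mock, and the footprint libraries held 6202819 and 5272725 counts with elf18, against 4752563 and 6717946 counts in mock. Across the 3708 abundant genes, log2 CPM of the 2 libraries of a group correlated with r of 0.930 in elf18 RNA, 0.982 in mock RNA, 0.941 in elf18 footprints and 0.915 in mock footprints. The mock RNA libraries were thus closer to each other than the elf18 RNA libraries. These correlations are across genes, which are not replicates.

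The 200 genes held 1.68% and 1.62% of all exon counts with elf18, against 3.07% and 3.1% in mock. In the footprint libraries they held 2.28% and 2.23% of the counts with elf18, against 3.28% and 3.34% in mock. Their ratio of the higher elf18 CPM to the lower mock CPM ran between 0.253 and 0.6999 with a median of 0.624, and 29 of the genes were below 0.5. The rule found 5.39% of the 3708 abundant genes, whereas its mirror image, in which both elf18 libraries were above both mock libraries by the same factor, found 556 genes, or 15%. Fitted across all genes, the exon RNA log2 fold change (elf18 over mock) of the 200 had a median of -0.79 and ran between -2.20 and -0.45. On that scale -1 is a level of 0.5 of mock. Fitted changes use edgeR's TMM scaling and CPM values use column totals, and a value after ± is the standard error of the fit. In that fit 23 of the 200 (11.5%) had an adjusted p under 0.05 on the low side, beside 0.158% of all genes tested called lower and 3.04% called higher, and nothing is read from that count because the same values chose the genes. In leaf tissue counted as a whole, fewer cells of a type and less RNA per cell cannot be told apart.

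The size of the set depends on the scaling. With TMM in place of column totals, the elf18 over mock difference of every gene moved up by 0.15 on the log2 scale, and 109 of the 200 genes still met the rule. With 1 library left out the ratio limit asks less of a gene, but the mean count is then taken over the remaining libraries. The rule found 632 genes without elf18 RNA replicate 1 and 504 without elf18 RNA replicate 2. These held 200 and 198 of the 200 genes. It found 233 without mock RNA replicate 1 and 354 without mock RNA replicate 2, which held 142 and 199 of the 200. On RNA counts over coding sequences 123 of the 200 met it. The values of a gene differed by over 1.5-fold between the elf18 RNA libraries in 42 of the 200 genes and between the mock RNA libraries in 2. At the limit itself stood AT4G33865, AT2G01970 and AT1G20970 just inside, with ratios of 0.6986, 0.6989 and 0.6999, and AT1G04210, HOG1 and ILA just outside, with ratios of 0.7001, 0.7014 and 0.7018.

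BBX14, a B-box zinc-finger transcription factor, had the lowest ratio, with RNA levels of 38.0 and 23.0 CPM with elf18, against 158 and 150.5 CPM in mock. That is a ratio of 0.253. AT5G25280 came next, with RNA levels of 27.2 and 32.5 CPM with elf18, against 111 and 119 CPM in mock, and AT2G38240 had RNA levels of 25.7 and 20.5 CPM with elf18, against 90.2 and 87.6 CPM in mock. COL2, a relative of the flowering regulator CONSTANS, had RNA levels of 22.4 and 18.3 CPM with elf18, against 66.8 and 78.8 CPM in mock. MEE31, a phosphomannose isomerase of mannose metabolism, had RNA levels of 23.8 and 22.5 CPM with elf18, against 75.5 and 71.0 CPM in mock. The rule itself asks for groups that do not overlap.

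DND1 (CNGC2), a cyclic nucleotide-gated cation channel whose loss alters the hypersensitive response, had RNA levels of 65.4 and 76.0 CPM with elf18, against 205 and 232 CPM in mock. PYL4, a receptor of abscisic acid, had RNA levels of 132 and 130.3 CPM with elf18, against 352 and 388 CPM in mock. CIPK20, a kinase bound by calcineurin B-like calcium sensors, had RNA levels of 16.4 and 26.1 CPM with elf18, against 61.8 and 62.9 CPM in mock. In RAP2.7 (TOE1), an AP2-type repressor of flowering, the elf18 libraries stood apart, with RNA levels of 13.3 and 31.2 CPM with elf18, against 70.1 and 76.1 CPM in mock. AT3G26510, AT2G03750 and AT4G28240 complete the 12 genes with the lowest ratios, at 0.372, 0.414 and 0.415.

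**Figure D1:**
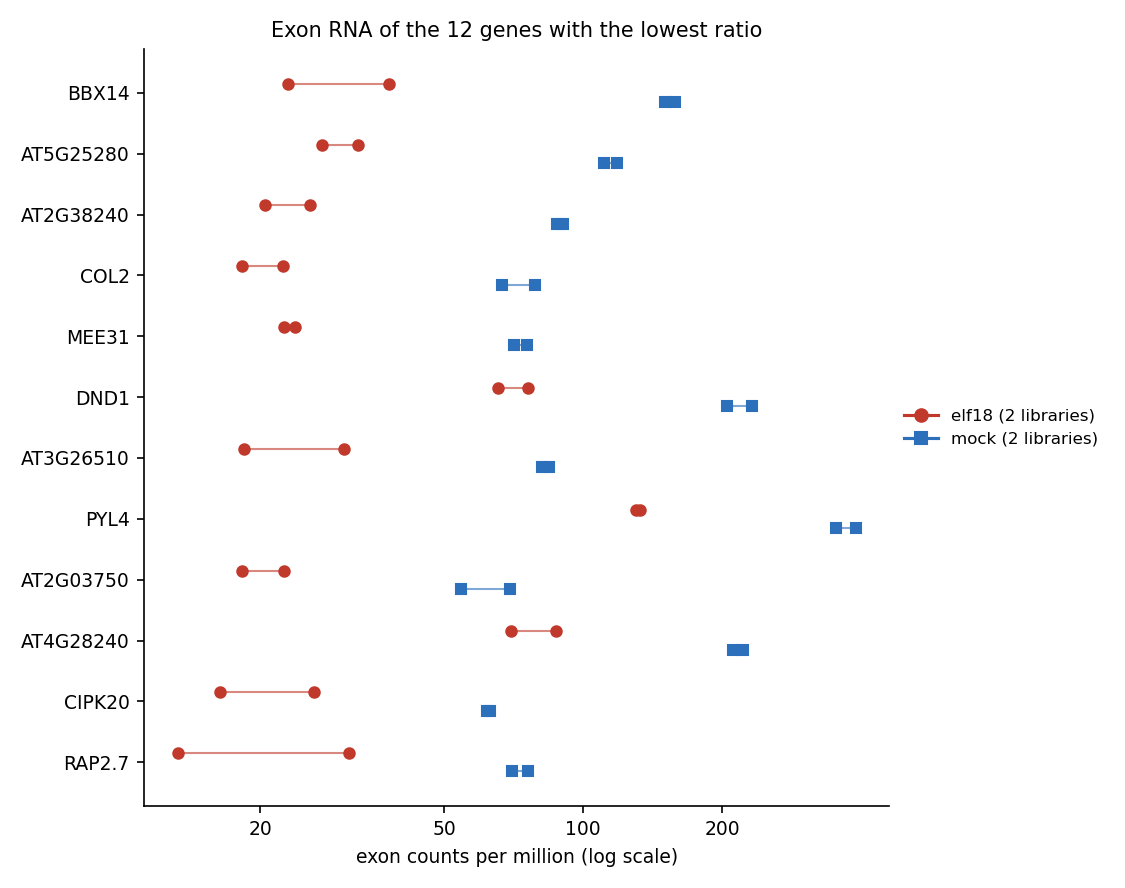
Exon CPM (log axis) of the 12 genes with the lowest ratio, lowest at the top. Red circles are the 2 elf18 libraries and blue squares the 2 mock libraries of each gene. BBX14 sits at 38.0 and 23.0 CPM with elf18, against 158 and 150.5 CPM in mock, and the elf18 circles of RAP2.7 are the farthest apart.

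The most abundant of the 200 were lowered by smaller factors. ERD5 (proline dehydrogenase), the first enzyme of proline breakdown, had the highest mean count and RNA levels of 771 and 836 CPM with elf18, against 1383 and 1353 CPM in mock. ECS1, a gene linked to resistance to Xanthomonas in some accessions, had RNA levels of 575 and 591.5 CPM with elf18, against 946 and 964 CPM in mock. J11, a chloroplast DnaJ co-chaperone, had RNA levels of 491 and 539 CPM with elf18, against 811 and 818 CPM in mock. The other 3 of the 6 most abundant were the dehydrin COR47, the SKU5-like gene sks5 and AT5G42530, with exon RNA log2 fold changes of -0.66, -0.78 and -0.68.

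Footprints of the 200 genes were lower with elf18 more often than those of other genes. All 200 could be tested, and in 197 every footprint library held at least 10 counts. The footprint log2 fold change, fitted across all genes, was below 0 in 164 of the 200 genes (82%), against 49.3% of the 14446 genes tested and 49.3% of the 3506 other genes with the same minimum mean count that could be tested. Its median was -0.43, with quartiles of -0.79 and -0.12, against 0.01 in the other 3506 genes. The exon RNA median of the 200 was -0.79, but these values chose the genes, so the size of the footprint change is not read against it. Both elf18 footprint libraries were below both mock libraries in 123 genes (61.5%), against 24% of all genes tested and 31.9% of the other abundant genes.

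At an adjusted p under 0.05 (edgeR's quasi-likelihood test, adjusted by Benjamini-Hochberg over 14446 genes), footprints of 10 of the 200 genes fell (5%) and those of 0 rose. The background was 0.166% of all genes tested called lower (24 genes) and 2.59% called higher (374 genes), and among the other 3506 abundant genes 13 (0.371%) fell and 349 (9.95%) rose. At an unadjusted p under 0.05, 54 of the 200 were lower and 0 were higher, while over all genes tested 415 were lower and 793 were higher. RNA and footprint libraries came from the same lysates, so the footprints are separate libraries but not separate plants. With 2 libraries a group the number of calls moved with the libraries used: it was 6 without elf18 footprint replicate 2 (0.0759% of all genes tested were then called lower), 13 without elf18 replicate 1 (0.904%), 16 without mock replicate 1 (0.296%) and 32 without mock replicate 2 (2.17%). Without mock replicate 2, 329 genes over all were called lower and 1085 higher. Each of these 4 leaves a group with 1 library, so the spread then rests on the 2 libraries of the other group, with 1 residual degree of freedom. DESeq2's Wald test called 42 of the 200 lower and 0 higher, and 1.52% of all genes tested lower.

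**Figure D2:**
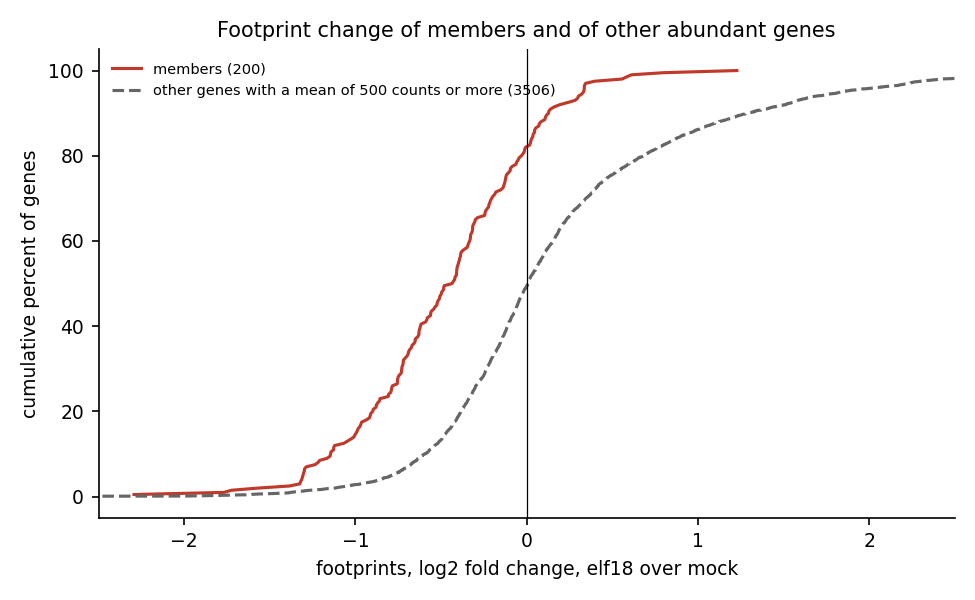
Cumulative percent of genes (vertical axis) against the footprint log2 fold change, elf18 over mock (horizontal axis), for the 200 genes (red line) and for the 3506 other genes with a mean of 500 exon counts or more (grey dashed line). The red line lies left of the grey line, with 82% of the 200 genes below 0, against 49.3% of the others.

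Across the 200 genes the footprint log2 fold change correlated with that of exon RNA with Pearson's r of 0.30 and Spearman's rho of 0.20, a description across genes that share libraries and whose RNA range was narrowed by their choice. With the genes ordered by ratio and divided into sets of 50, the median footprint change was -0.53 in the set of lowest ratios, where 5 genes fell. In the following sets the median was -0.38, -0.64 and -0.32, and 3, 1 and 1 genes fell. The footprint change minus the RNA change over coding sequences was above 0 in 152 of the 200 genes, with a median of 0.43. A positive difference is in part fixed by the choice of genes with low RNA, so it was not tested.

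**Figure D3:**
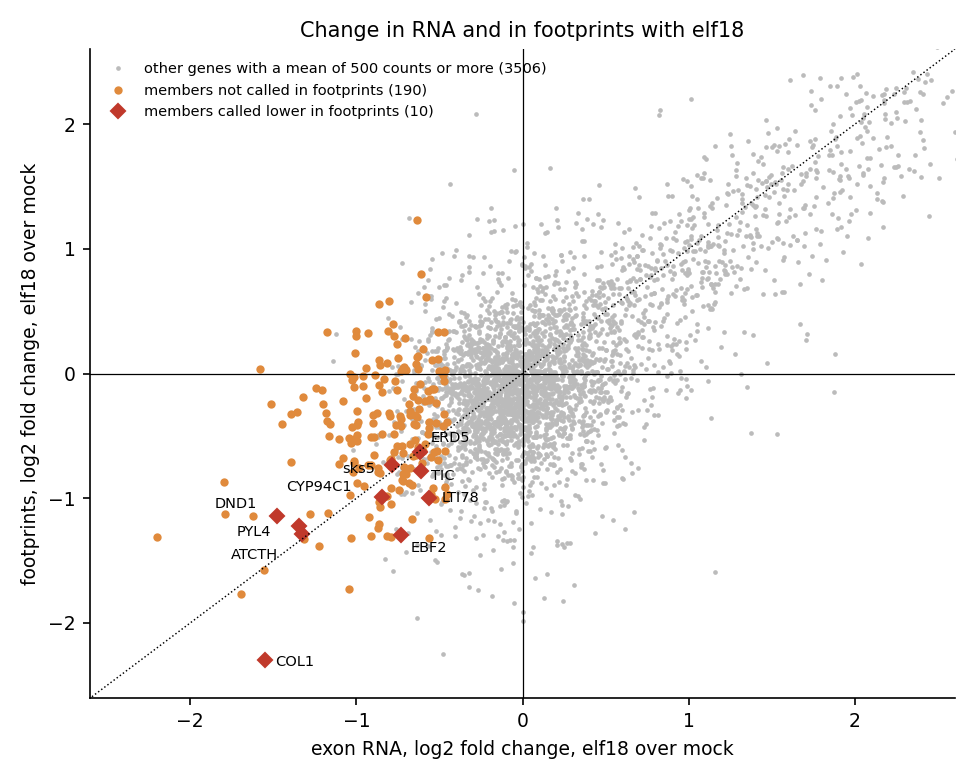
Footprint log2 fold change (vertical axis) against exon RNA log2 fold change (horizontal axis), both elf18 over mock. Orange circles are the 190 genes not called in footprints, red diamonds the 10 that fell, and grey dots the other abundant genes, of which 101 lie outside the drawn range. The dotted line marks equal change. COL1 is lowest, with -2.29 in footprints and -1.55 in RNA.

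The 10 genes whose footprints fell were COL1, EBF2, ATCTH, PYL4, DND1, LTI78, CYP94C1, TIC, sks5 and ERD5. In each of them both elf18 footprint libraries were below both mock libraries. COL1, PYL4 and DND1 were called lower under each of the 12 alternative analyses of the footprints, 4 of which leave out a library and are weak tests for the reason given above. The other 7 each lost the call under 1 or more of them, as given beside each gene below. LTI78 and TIC did not meet the RNA rule under TMM scaling.

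**Figure D4:**
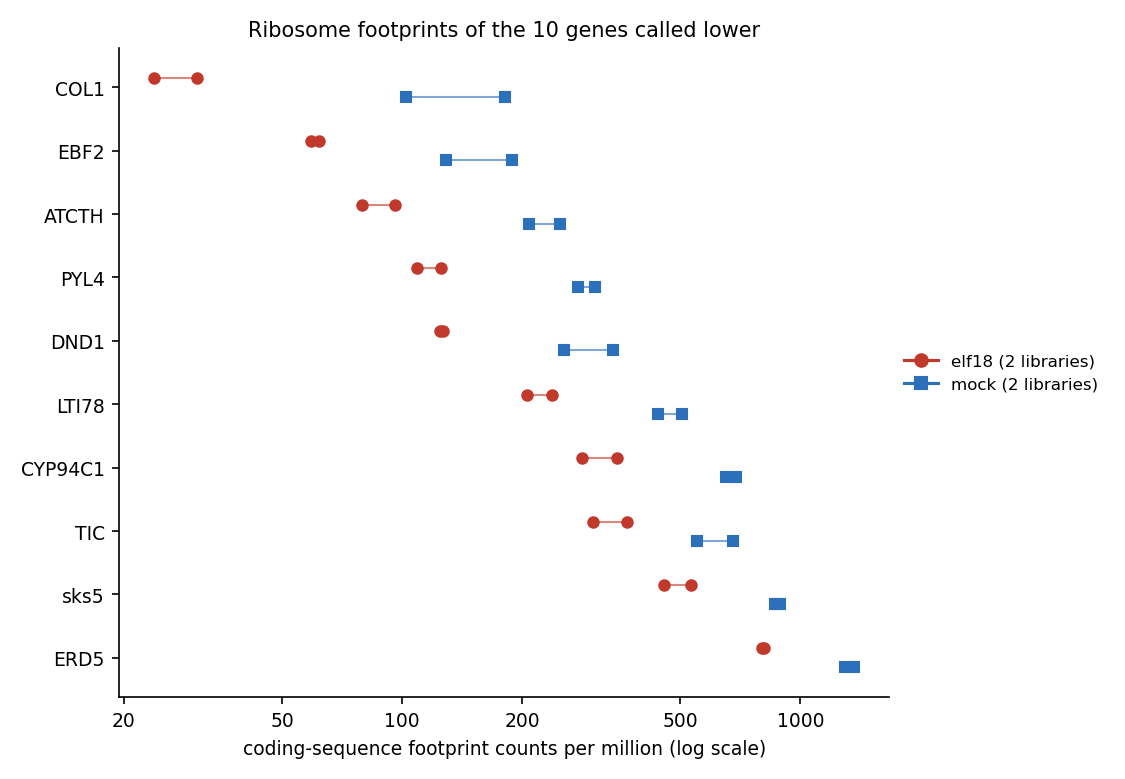
Footprint CPM over the coding sequence (log axis) of the 10 genes whose footprints fell, ordered by footprint log2 fold change, lowest at the top. Red circles are the 2 elf18 libraries and blue squares the 2 mock libraries. In COL1 the elf18 libraries are at 23.9 and 30.5 CPM, against 181 and 102 CPM in mock, and in ERD5 they are at 809 and 801 CPM, against 1292 and 1367 CPM.

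For description, 91 of the 200 genes with a known role were placed in 10 groups, after their values had been seen, so no count below is a test of a group. Of all genes tested, 49.3% were below 0 in footprints, and 24% had both elf18 libraries below both mock libraries. In the 200 these shares were 82% and 61.5%. The first group, light and clock, held 7 transcriptional regulators of light response, the clock and, with RAP2.7, flowering. Its median footprint change was -1.31, and all 7 were below 0. Footprints of COL1, like COL2 a CONSTANS relative, numbered 23.9 and 30.5 CPM with elf18, against 181 and 102 CPM in mock. The change was -2.29 ± 0.39 (SE) on the log2 scale with an adjusted p of 0.00491 by edgeR's quasi-likelihood test, and its exon RNA levels were 38.6 and 12.0 CPM with elf18, against 80.5 and 82.0 CPM in mock. TIC (TIME FOR COFFEE), a nuclear regulator of the circadian clock, had footprint levels of 301.5 and 368 CPM with elf18, against 679 and 549 CPM in mock. Its footprint change of -0.78 ± 0.19 had an adjusted p of 0.0471 by edgeR's test, which was 0.222 without elf18 replicate 1 and 0.0581 without mock replicate 1, 0.0662 with RLE size factors, another scaling in edgeR, and 0.0784 with a minimum mean of 50 counts.

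BBX14, lowest in RNA, had footprint levels of 44.8 and 56.7 CPM with elf18, against 141 and 127 CPM in mock, and its change of -1.31 ± 0.32 did not pass, with an adjusted p of 0.0536. COL2 and RAP2.7 had few footprints and large errors, with changes of -1.77 ± 0.84 and -1.57 ± 0.78. In COL2 the groups overlapped, with 20.0 and 5.7 CPM with elf18, against 16.2 and 78.3 CPM in mock. LNK3 (AT3G12320), a light-inducible partner of the clock, had footprint levels of 74.0 and 100.3 CPM with elf18, against 129 and 142 CPM in mock, without overlap and with a change of -0.54 ± 0.29. STO (BBX24), a B-box repressor of photomorphogenesis, was the least lowered of the group in footprints, at -0.14 ± 0.20.

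The hormone group held 9 receptors, repressors and turnover genes, and in all 9 both elf18 footprint libraries were below both mock libraries. That held in 61.5% of the 200 and 24% of all genes tested, and the group was made by hand with the values known. The median footprint change of the 9 was -0.99 and 3 of them fell. PYL4, the abscisic acid receptor, had footprint levels of 126 and 109 CPM with elf18, against 306 and 276 CPM in mock, a change of -1.22 ± 0.23 with an adjusted p of 0.00897 by edgeR's test. CYP94C1, a cytochrome P450 that oxidises active jasmonate and so removes it, had footprint levels of 347 and 284 CPM with elf18, against 649 and 688 CPM in mock. Its footprint change was -0.99 ± 0.17 with an adjusted p of 0.00517 by edgeR's test (0.0592 without elf18 replicate 2), and its RNA levels were 216 and 212 CPM with elf18, against 431 and 423 CPM in mock. EBF2, an F-box protein that sends the ethylene-response factor EIN3 to degradation, had footprint levels of 61.9 and 59.0 CPM with elf18, against 129 and 189 CPM in mock. Its change of -1.30 ± 0.30 had an adjusted p of 0.0413 by edgeR's test, which was 0.0605 without elf18 replicate 1, 0.115 without elf18 replicate 2, 0.0931 without mock replicate 2 and 0.0684 with a minimum mean of 50 counts.

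Of the jasmonate repressors, TIFY7 (JAZ9) had footprint levels of 295 and 328 CPM with elf18, against 483 and 615 CPM in mock. JAZ6 had footprint levels of 245.5 and 248 CPM with elf18, against 329.9 and 334 CPM in mock. TIFY10B (JAZ2) had footprint levels of 69.3 and 24.7 CPM with elf18, against 138 and 112 CPM in mock. None of these 3 passed, with adjusted p of 0.0585, 0.783 and 0.248 by edgeR's test, although no mock library was below an elf18 library in these genes. TIR1, an F-box auxin receptor, had footprint levels of 46.6 and 45.9 CPM with elf18, against 104 and 103 CPM in mock, a change of -1.07 ± 0.34. KMD4 (AT3G59940), an F-box protein that limits cytokinin response, had footprint levels of 165 and 182 CPM with elf18, against 388 and 291 CPM in mock, with a change of -0.88 ± 0.22 and an adjusted p of 0.0647 by edgeR's test. CEPR2 (AT1G72180), a receptor of C-terminally encoded peptides, was at -0.40 ± 0.23.

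In the cold and dehydration group, all 6 genes had both elf18 footprint libraries below both mock libraries, against 24% of all genes tested. The median change was -0.84, and 2 genes fell. LTI78 (RD29A), a widely used marker of abscisic acid and cold response, had footprint levels of 238 and 206 CPM with elf18, against 505 and 439 CPM in mock. Its change of -0.995 ± 0.19 had an adjusted p of 0.0116 by edgeR's test (0.0855 without elf18 replicate 2), while its RNA, with 181 and 152 CPM with elf18, against 277 and 268 CPM in mock, was among the less lowered. ERD5, the proline dehydrogenase, had footprint levels of 809 and 801 CPM with elf18, against 1292 and 1367 CPM in mock. That change of -0.63 ± 0.13, close to the -0.62 ± 0.10 of its RNA, had an adjusted p of 0.0155 by edgeR's test, and 0.0779 and 0.186 without elf18 replicates 1 and 2. COR47, a dehydrin, was at -0.66 ± 0.22 in footprints, and COR15A, which protects chloroplast membranes on freezing, at -1.13 ± 0.51. HVA22D, an abscisic acid-induced gene, and COR413-PM1, a cold-regulated membrane protein, were at -1.12 ± 0.79 and -0.68 ± 0.28, and none of these 4 passed.

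Of 12 defence and signalling genes, 1 fell in footprints, 8 were below 0 and the median was -0.32. DND1 was the one that fell, with footprint levels of 124 and 126.5 CPM with elf18, against 255 and 338 CPM in mock, a change of -1.15 ± 0.23 and an adjusted p of 0.0141 by edgeR's test. PGIP2, which inhibits fungal polygalacturonases, had footprint levels of 182.5 and 165 CPM with elf18, against 308 and 293 CPM in mock, with a change of -0.70 ± 0.21 that did not pass. The kinases CIPK20, CIPK9 and SIP3 (CIPK6) were at -0.71 ± 0.42, -0.44 ± 0.24 and 0.05 ± 0.36. LURP1, a gene induced late in response to an oomycete, had few footprints and a change of -1.05 ± 0.60, and SAUL1, a ubiquitin ligase that holds back cell death, was at -0.51 ± 0.31.

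In several genes of the same group the footprints of elf18 and mock libraries overlapped. THE1 (THESEUS1), a receptor kinase that senses the state of the cell wall, had RNA levels of 17.7 and 38.8 CPM with elf18, against 69.9 and 72.9 CPM in mock, and footprint levels of 135 and 194 CPM with elf18, against 105 and 174 CPM in mock. ACD6, an ankyrin membrane protein of salicylic acid defence, had footprint levels of 208.5 and 277 CPM with elf18, against 317 and 235 CPM in mock, and a change of -0.10 ± 0.23. EICBP.B (CAMTA1), a calmodulin-binding transcription factor, was at 0.30 ± 0.29, and SRFR1, which restrains effector-triggered immunity, at 0.07 ± 0.33. In WAK1, a pectin-binding kinase, the groups did not overlap but the change was small, at -0.20 ± 0.25.

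The chloroplast group had 13 genes, of which 11 were below 0 in footprints, 10 without overlap, at a median of -0.42. By edgeR's test 0 were called in either direction, while at an unadjusted p under 0.05 there were 6 lower and 0 higher, and DESeq2 called 3 lower and 0 higher. CH1, chlorophyll a oxygenase, which makes chlorophyll b, came closest, with 263 and 244.5 CPM with elf18, against 477 and 434 CPM in mock, and a change of -0.75 ± 0.18 with an adjusted p of 0.05001. CT-BMY (BAM3), the beta-amylase of nightly starch breakdown, had RNA levels of 237 and 202 CPM with elf18, against 496 and 473 CPM in mock. Its footprints numbered 484 and 506 CPM with elf18, against 732 and 759 CPM in mock, a change of -0.50 ± 0.15. HEME1, a uroporphyrinogen decarboxylase, and GUN4, an activator of magnesium chelatase, were at -0.79 ± 0.32 and -0.41 ± 0.22. ACHT4, an atypical thioredoxin, had the lowest change of the group, -1.72 ± 0.59, with libraries that differed widely within a group: 64.6 and 17.4 CPM with elf18, against 213 and 74.0 CPM in mock.

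FdC1, a minor ferredoxin, and CSD2, a copper/zinc superoxide dismutase, were at -1.17 ± 0.44 and -0.91 ± 0.26 in footprints. The chaperonin CPN60B, the protease FTSH11, the sigma factor SIGF and the thylakoid targeting protein CAO (cpSRP43) lay between -0.42 and 0.02. The plastid ribosomal proteins differed: PRPS20 was at -0.32 ± 0.21 without overlap, and RPL24, with 146 and 118 CPM with elf18, against 62.5 and 152 CPM in mock, at 0.40 ± 0.37 with overlap.

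Among 14 wall and cuticle genes, 1 fell in footprints, 11 were below 0 and the median was -0.34. sks5, a member of the SKU5 family of cell-surface glycoproteins, had footprint levels of 455 and 532 CPM with elf18, against 862 and 887 CPM in mock, a change of -0.73 ± 0.15 with an adjusted p of 0.0205 by edgeR's test (0.173 without elf18 replicate 1). GAE6, an epimerase that supplies galacturonate for pectin, had footprint levels of 292 and 329 CPM with elf18, against 534 and 521 CPM in mock, a change of -0.67 ± 0.17 with an adjusted p of 0.0705. The arabinogalactan protein AGP18, the beta-galactosidase BGAL3 and the galactan synthase GALS1 were at -1.03 ± 0.47, -0.62 ± 0.28 and -0.52 ± 0.43. For the cuticle, CYP86A2, a cutin-forming hydroxylase, was at -0.39 ± 0.17, and ABCG12, an exporter of wax, had RNA levels of 61.8 and 36.1 CPM with elf18, against 91.1 and 103 CPM in mock, but footprint levels of 142.5 and 168 CPM with elf18, against 186 and 182 CPM in mock.

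CSI1, which links cellulose synthase to microtubules, had footprint levels of 687 and 683 CPM with elf18, against 761 and 761 CPM in mock, a change of -0.06 ± 0.14. EXPA1, an expansin that loosens walls, and KCS9, a fatty acid elongase, had overlapping footprints. The footprint levels of EXPA1 were 43.5 and 66.2 CPM with elf18, against 48.6 and 63.1 CPM in mock. Those of KCS9 were 109 and 134 CPM with elf18, against 93.0 and 140.1 CPM in mock. AGP12, another arabinogalactan protein, had the highest footprint change of the 200, 1.23 ± 1.02, on 9.2 and 32.8 CPM with elf18, against 7.2 and 12.1 CPM in mock. The elf18 libraries of AGP12 overlapped the mock libraries. The pectin genes PMR6, PG2 and GAUT4 were at -0.29 ± 0.59, -0.39 ± 0.27 and -0.22 ± 0.33, all with overlap.

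All 5 phenylpropanoid and flavonoid genes had both elf18 footprint libraries below both mock libraries, against 24% of all genes tested. Their median was -0.69, and 0 were called by edgeR's test. At an unadjusted p under 0.05 there were 3 lower and 0 higher, and DESeq2 called 3 lower and 0 higher. TT4, chalcone synthase, the entry enzyme of flavonoid synthesis, had footprint levels of 205 and 126 CPM with elf18, against 268.5 and 349.8 CPM in mock, a change of -0.81 ± 0.26. MYBL2, a repressor of anthocyanin synthesis, had footprint levels of 75 and 61.4 CPM with elf18, against 123 and 117 CPM in mock. On the lignin side, HCT was at -0.69 ± 0.22, CCR1 at -0.35 ± 0.32 and CYP98A3 at -0.38 ± 0.30. CYP98A3 overlaps its neighbour CYSA, also among the 200, in RefSeq's annotation. With no strand setting given, reads from the stretch they share may not be told apart. Whether that stretch reaches the coding sequences was not examined.

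Of 9 genes of RNA, chromatin and the ribosome, 1 fell in footprints and the median was -0.33. ATCTH (TZF1), a tandem zinc-finger protein of RNA granules, had footprint levels of 79.2 and 96.3 CPM with elf18, against 249 and 208 CPM in mock. Its change of -1.29 ± 0.26 had an adjusted p of 0.0151 by edgeR's test (0.0579 without elf18 replicate 1), and its RNA levels were 66.8 and 108 CPM with elf18, against 221.5 and 268 CPM in mock. RFR1, a Mediator subunit, and CHR4, a chromatin remodeller, were at -0.56 ± 0.28 and -0.51 ± 0.25 without overlap, and URT1 (AT2G45620), which uridylates mRNA tails, at -0.33 ± 0.38. GTB1, a relative of the elongation factor SPT6, and FPA, an RNA-binding regulator of flowering, overlapped, at 0.11 ± 0.23 and 0.05 ± 0.30. The cytosolic ribosomal proteins RPL16B, RPL36aA (AT3G23390) and EMB3010 (RPS6B) were at -0.09 ± 0.69, -0.58 ± 0.66 and -0.12 ± 0.26, and all overlapped. Each has a closely similar copy, between which reads may be split, so their counts are uncertain.

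The cytoskeleton and membrane traffic group, 7 genes, had 2 genes without overlap on the low side and a median footprint change of -0.20. None was called by edgeR's test or by DESeq2, and 0 had an unadjusted p under 0.05. BTI3, a reticulon-like protein, had RNA levels of 9.9 and 28.8 CPM with elf18, against 60.1 and 69.5 CPM in mock, and footprint levels of 30.6 and 22.6 CPM with elf18, against 11.4 and 44.5 CPM in mock, and its footprints overlapped between the groups. Its relative BTI1 was at -0.24 ± 0.34 and LNG2 (LONGIFOLIA2), which promotes leaf elongation, at -0.20 ± 0.38. ACT7, a vegetative actin, had footprint levels of 252.5 and 343 CPM with elf18, against 214 and 291 CPM in mock, a change of 0.34 ± 0.23, and SAR2, a GTPase of vesicle coats, was at -1.30 ± 0.61. The alpha-tubulins TUA2 and TUA4 were at 0.19 ± 0.98 and -0.81 ± 0.62. TUA2 and TUA4 are near-identical in sequence, so how reads were shared between them is uncertain, and the same caution applies to ACT7 among the actins.

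Of 9 transport and metabolism genes, 2 had footprints without overlap on the low side, and the median was -0.25. By edgeR's test 0 were called, 1 had an unadjusted p under 0.05, on the low side, and DESeq2 called 0. MEE31, among the 12 lowest ratios in RNA, had footprint levels of 47.4 and 46.3 CPM with elf18, against 48.0 and 70.9 CPM in mock, a change of -0.25 ± 0.42. PDX1.1, an enzyme of vitamin B6 synthesis, was at -0.56 ± 0.24 without overlap. The aquaporin PIP2B, the potassium transporter KUP5 and the nitrate transporters NRT1.7 and NPF6.2 (AT2G26690) overlapped, at -0.43 ± 0.49, -0.52 ± 0.53, -0.65 ± 0.61 and 0.13 ± 0.23. PIP2B also has a near-identical copy. GLX1, a glyoxalase, and MAB1, a subunit of mitochondrial pyruvate dehydrogenase, were at -0.06 ± 0.41 and 0.13 ± 0.31. PKp3, a plastid pyruvate kinase, had footprint levels of 92.1 and 92.2 CPM with elf18, against 78.9 and 78.3 CPM in mock, with both elf18 libraries above both mock libraries.

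**Figure D5:**
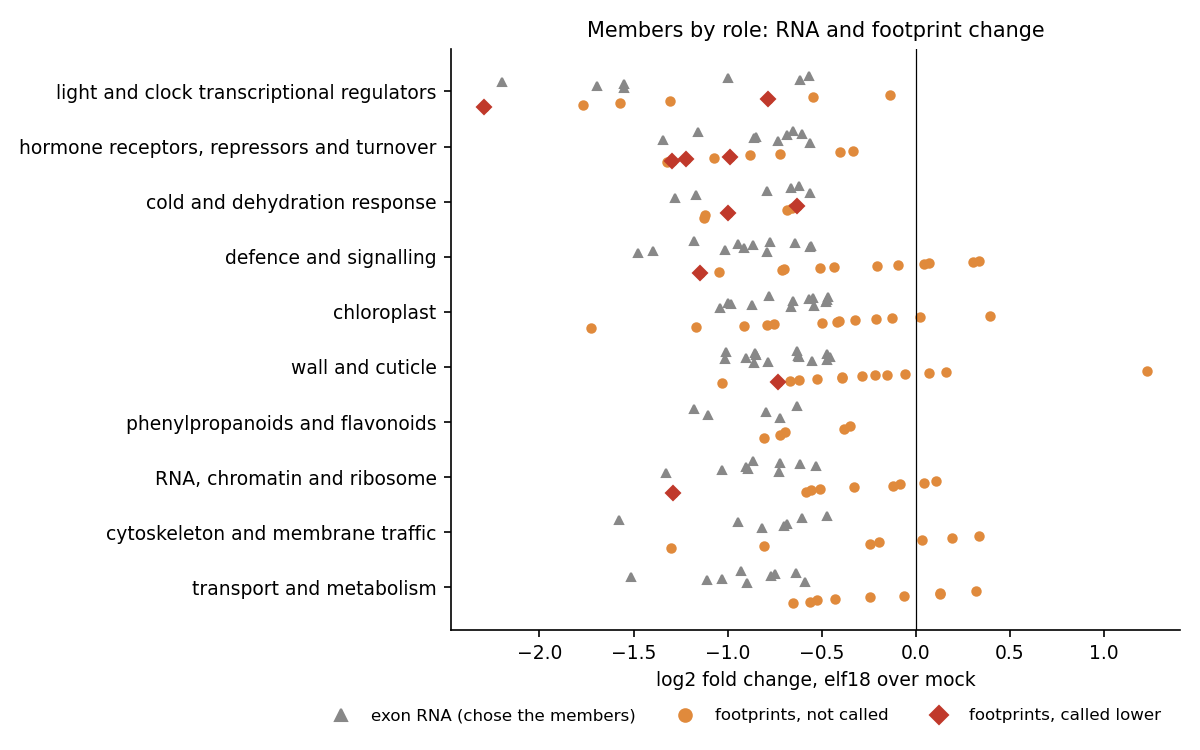
Log2 fold change, elf18 over mock (horizontal axis), of the 91 genes placed by role (one row per group). Grey triangles are exon RNA, which chose the genes, orange circles are footprints not called, and red diamonds are footprints that fell. All footprint points of the light and clock, hormone, cold and dehydration, and phenylpropanoid and flavonoid groups are left of 0, and those of the other 6 groups lie on both sides.

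Only 3 of the 200 genes (1.5%) had both elf18 footprint libraries above both mock libraries, against 16.3% of all genes tested: PKp3, AT2G27385 and AT2G01970. AT2G27385 had footprint levels of 68.4 and 70.4 CPM with elf18, against 29.0 and 56.3 CPM in mock, but RNA levels of 34.6 and 35.8 CPM with elf18, against 61.3 and 57.7 CPM in mock. ATSK12, a shaggy-like kinase, had footprint levels of 108 and 135 CPM with elf18, against 48.0 and 126 CPM in mock, where a single mock library lay well below the other libraries. With AGP12 and AT3G53890, these 2 genes had the highest footprint changes, 1.23 ± 1.02, 0.80 ± 0.43, 0.61 ± 0.79 and 0.58 ± 0.40 for AGP12, AT2G27385, AT3G53890 and ATSK12, and none of the 4 was called.

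The 109 genes placed in no group had a median footprint change of -0.41, with 90 below 0 and 64 without overlap, and 0 were called by edgeR's test. All 10 genes that fell had been placed in a group with their values known, so nothing is read from this 0. At an unadjusted p under 0.05 there were 21 lower and 0 higher, and DESeq2 called 17 lower and 0 higher. AT5G25280 and AT2G38240, the second and the third by ratio in RNA, were at -1.13 ± 0.46 and -0.87 ± 0.46 in footprints without overlap. AT2G34510 came closest to a call, with 74.8 and 68.8 CPM with elf18, against 184 and 156 CPM in mock, a change of -1.15 ± 0.28 and an adjusted p of 0.0510 by edgeR's test. BG_PPAP, a plasmodesmal beta-glucanase, had footprint levels of 140.1 and 108 CPM with elf18, against 279 and 237 CPM in mock, a change of -0.96 ± 0.24 with an adjusted p of 0.0626. J11 was at -0.69 ± 0.18, ECS1 at -0.39 ± 0.15 and AT5G42530 at -0.75 ± 0.27. AT4G33865 had almost no footprints, with 3.7 and 0.2 CPM with elf18, against 0.2 and 8.3 CPM in mock, and its change is without meaning at that depth. The histone gene HTB4, at -0.52 ± 0.57, has near-identical copies.

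Lists of known genes covered 23 pathways, and 28 of the 200 (14%) were in 1 or more of them, against 313 (8.44%) of the 3708 genes abundant enough for the rule. These lists were drawn up with earlier results of these libraries known, so nothing is read from the difference. Of the B-box and CONSTANS-like zinc fingers, 4 were among the 200, and in the 17 genes of that list tested in footprints 1 fell (COL1) and the median change was -0.61. The list of abscisic acid receptors and response also gave 4, and of its 27 genes tested in footprints 2 fell (PYL4 and LTI78), 23 were below 0 and the median was -0.59. The jasmonate list gave 4 as well, although 4 of its 32 names matched no gene entry, so the count may be low. It was mixed: of 26 genes tested in footprints 1 fell (CYP94C1) and 4 rose, the synthesis genes LOX3, LOX4, AOS and AOC3. Tetrapyrrole synthesis gave 3 genes, and of its 20 genes tested in footprints 14 were below 0, with a median of -0.10.

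Several lists had no member among the 200, where 5.39% of all genes abundant enough met the rule. All 18 light-harvesting antenna genes were abundant enough and 0 met it, with a median exon RNA change of -0.0016, although 4 of the 18 fell in footprints, where the median was -0.34. Of genes abundant enough, 0 also met it among 23 of the photosystem list, 22 of the Calvin cycle, 13 translation factors, 9 of light signalling, 8 of glucosinolates, 7 of gibberellin and brassinosteroid and 6 of the circadian clock. Lists as short as these cannot tell 0 from the 5.39%, so no absence is read from them. In footprints 2 of the 23 photosystem genes and 2 of the 22 Calvin cycle genes fell, and 0 in the other lists just named. Both elf18 footprint libraries were below both mock libraries in 17 antenna, 20 photosystem and 20 Calvin cycle genes. That held in 61.5% of the 200 and 24% of all genes tested, so lower footprints were not particular to the 200. The clock list does not hold TIC and LNK3, which are among the 200. Of the immune receptor list 15 genes were abundant enough, and of the early elicitor-response transcription factor list 19, and 0 of either met the rule. In footprints 7 of 21 genes tested of the immune receptor list rose, and 9 of 21 of the transcription factor list.

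Markers of leaf cell types were summed for each library. The summed exon CPM of 11 epidermis and trichome markers was 898 and 892 with elf18, against 1120 and 1143 in mock. Of those 11, ABCG12 is itself among the 200, and MYB0 (GL1), which starts trichomes, was at 0 in every exon library. The 8 mesophyll markers summed to 72061 and 79749 CPM with elf18, against 85099 and 86169 CPM in mock. For 11 guard cell markers the sums were 1736 and 1500 CPM with elf18, against 1914 and 1897 CPM in mock, and for 11 vascular markers 3690 and 4192 CPM with elf18, against 4036 and 4083 CPM in mock. In footprints the same epidermis markers summed to 1159 and 1129 CPM with elf18, against 1393 and 1573 CPM in mock, and the mesophyll markers to 32745 and 33712 CPM with elf18, against 42090.1 and 42588 CPM in mock. The guard cell markers summed to 3302 and 3229 CPM in footprints with elf18, against 2969 and 3098 CPM in mock, and the vascular markers to 7358 and 7602 CPM with elf18, against 8699.5 and 8351 CPM in mock. GLDP1, one of the vascular markers, is also in the list of the Calvin cycle and photorespiration, so the vascular sum may not follow vascular cells alone. Taken singly, 8 of the 11 guard cell markers had a footprint log2 fold change below 0, with a median of -0.28. The higher guard cell sum therefore does not give the direction of most of its genes. With TMM scaling, an alternative added after seeing the data, the exon sums of the mesophyll markers overlapped, at 74463 and 85573 with elf18, against 81152 and 81494 in mock. Those of the epidermis markers did not, at 928 and 957 with elf18, against 1068 and 1081 in mock. The movement of these sums thus depends on the cell type, the kind of library and the scaling, and their part in the values of the 200 genes was not tested.

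In 4 places 2 of the 200 genes are neighbours on a chromosome: PDX1.1 and AT2G38240, CYSA and CYP98A3, AT3G06070 and TBL10, and AGP18 and SRFR1. PDX1.1 had RNA levels of 154 and 135 CPM with elf18, against 236 and 244 CPM in mock, and AT2G38240 was lowered more, as given above. AGP18 had RNA levels of 41.2 and 30.6 CPM with elf18, against 62.7 and 81.7 CPM in mock, and SRFR1 had RNA levels of 41.6 and 31.6 CPM with elf18, against 65.3 and 60.6 CPM in mock. The footprint changes of AGP18 and SRFR1 were -1.03 ± 0.47 and 0.07 ± 0.33, and the difference between these neighbours was not tested.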

How the data were processed

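The authors deposited raw counts per gene, with no normalization, in a table of exon counts (4 RNA libraries) and a table of coding-sequence counts (8 libraries). CASAVA 1.8.2, Bowtie2 2.0, TAIR10 and HTSeq, without its version, are named per the submitters' processing notes. Trimming, footprint lengths, strand setting and the treatment of reads with several matches are not stated there. Of 27172 genes, 62 had blank footprint values and were left out of footprint tests. Gene names came from RefSeq's gene table for TAIR10.1, used for names only (26685 loci matched, 487 did not). No sequence of promoters or proteins was used here, so a planned count of promoter motifs was not run.

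Changes were fitted in R 4.3.3 with edgeR 4.0.16 (TMM, filterByExpr with a minimum of 10 counts, glmQLFit, glmQLFTest), with treatment as the single term, which leaves 2 residual degrees of freedom, and Benjamini-Hochberg adjustment over all genes tested; a gene is called at an adjusted p under 0.05. Errors of log2 fold changes are the change divided by the square root of the test's F. CPM values in the text use column totals. Alternatives used limma 3.58.1 and DESeq2 1.42.0, and figures Python 3.11.15 with matplotlib 3.10.9. The scripts were tested on simulated data. The genes, lists and tests were chosen with earlier results of these data known. Genes named by rule were the 12 of lowest ratio, the 6 most abundant, those called in footprints, the 4 with the highest footprint change, 3 on either side of the limit and up to 3 from each list; all others were named after their values were seen. Libraries of a group differed beyond counting noise (chi-square per degree of freedom of 59.0 in elf18 RNA, 12.7 in mock RNA, 21.3 in elf18 footprints and 26.2 in mock footprints). Replicates are separate lysates of pooled leaves, and p-values measure only the spread between them.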

Additional observations from a re-analysis of the deposited data

How the results depend on the processing

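Beside the 109 genes under TMM scaling, the rule found 164 genes on coding-sequence counts (123 of them among the 200), 76 with a ratio of 0.6, 474 with a ratio of 0.8, 967 with a minimum mean count of 100 and 82 with one of 1000, and between 233 and 632 with a library left out. The genes whose footprints fell numbered 9 of the 200 with RLE size factors (0.132% of all genes tested), 18 with column totals (0.36%), 42 with DESeq2 (1.52%), 32 with limma voom (0.748%), 31 with no filter beyond 1 count (0.521%), 8 with a minimum mean of 50 counts (0.183%), 23 with all 8 libraries in 1 fit (0.297%), 8 of the 109 genes chosen under TMM scaling, and between 6 and 32 with a library left out (0.0759% to 2.17%). The median footprint change stayed below 0 under each of these. Footprints of 0 rose in these alternatives, except that 2 did without mock replicate 2 (ATSK12 and RPL24, named after their values were seen). Both elf18 libraries were below both mock libraries in 105 genes with RLE size factors and in 108 with TMM scaling, the last chosen after seeing the data. The share over all genes was not counted under these scalings, so these counts are not read as an excess.

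The footprint change of some uncalled genes changed sign with a library left out. It ran between -0.23 and 0.36 in EXPA1, -1.09 and 0.25 in PIP2B, -0.079 and 0.46 in KCS9, -0.47 and 0.034 in MEE31, -0.83 and 0.21 in AT2G03750, -4.23 and 3.14 in AT4G33865, -0.69 and 0.29 in PMR6, and -1.25 and 0.40 in NRT1.7. EXPA1 was also at -0.029 with column totals and at -0.0053 with voom. The cause was not tested.

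In exon RNA over all genes, 25 were called lower and 483 higher. DESeq2 called 1383 lower and 1245 higher, no filter gave 47 lower, and leaving out a library gave between 15 and 2699 lower and between 462 and 1678 higher. The replicate block gave 169 lower and 747 higher in RNA and 31 of the 200 genes lower in footprints (0.748% of all genes). The replicate numbers were not taken as a pairing: the deviations of same-numbered elf18 and mock libraries correlated with r of -0.042 in footprints and 0.0080 in RNA. The member with fewest footprints had a mean of 20.25 counts, and so few limit the precision of its change.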
